A study of Mus musculus with 12 samples.

Results

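The genes described here are 57 genes of the interferon response and of viral RNA sensing, chosen by name: receptors, kinases, STAT and IRF transcription factors, sensors of foreign RNA and DNA, antiviral effectors and feedback regulators. The list was drawn up with earlier results of these data known. Of the 57 genes, 52 had a probe set carrying their symbol alone and were measured, among 19248 genes tested in all. Isg15, Gbp2, Gbp6, Igtp and Ifi44 had no such probe set and were not analysed here. The brightest probe set stood for a gene with more than 1.

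Gene expression was measured on whole-transcript arrays in the striatum of 12 mice at 8 weeks of age. The striatum is the part of the forebrain that Huntington's disease (HD) damages most. The mice formed 4 groups of 3: non-transgenic mice with normal p62 (NT;p62+/+), HD transgenic mice with normal p62 (HD;p62+/+), non-transgenic p62 knockouts (NT;p62-/-) and HD transgenic p62 knockouts (HD;p62-/-). The cross asked what loss of p62, the autophagy receptor encoded by Sqstm1, does to gene expression in an HD model. The labels name neither the HD line, its promoter and transgene, nor the strain or sex of the animals, and each array was taken as 1 mouse. Values are log2 levels, and differences are log2 differences unless a fold is named. Where 3 values follow each other, they are those of replicates 1, 2 and 3. The array medians lay between 7.70 and 7.73, and 3 mice per group limit the precision of each value.

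Interferons are secreted alarm signals. RIG-I (Ddx58) and MDA5 (Ifih1) bind viral RNA in the cytosol and signal through the mitochondrial adaptor MAVS to IRF3 and IRF7, which switch on the type I interferon genes. Type I interferon binds the receptor chains IFNAR1 and IFNAR2, the kinases JAK1 and TYK2 phosphorylate STAT proteins, among them STAT2, and a complex with IRF9 binds a promoter element called ISRE. Interferon gamma acts through IFNGR1 and IFNGR2, and its signal reaches promoters through an element called GAS. In the brain, microglia, astrocytes, vascular cells and neurons can all respond.

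The 6 knockouts had the 6 lowest Sqstm1 levels. The log2 level was 11.20, 11.35 and 11.24 in non-transgenic and 11.75, 11.26 and 11.51 in HD mice with p62. In the knockouts it was 8.44, 8.52 and 8.50 without the HD transgene and 8.92, 9.13 and 9.02 with it. Of 8 measured markers of striatal projection neurons, 7 fell in HD mice of each p62 genotype, where 3.24% of all genes fell with p62 and 8.34% without it. The other one, Tac1, which encodes the precursor of substance P, rose by 0.33 ± 0.091 (SE) with p62 (limma, adjusted p = 0.0492) and differed by 0.23 ± 0.091 without it (adjusted p = 0.0853).

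HD mice had higher levels of many interferon response genes, with and without p62. With p62, 17 of the 52 genes rose and 0 fell (HD against non-transgenic mice, limma, Benjamini-Hochberg adjusted p below 0.05), where 3.85% of all genes rose and 3.24% fell. In the p62 knockouts 21 rose and 1, Nlrc5, fell, where 13.3% of all genes rose and 8.34% fell. For the mean of both HD differences, which uses the same 12 arrays and is no independent comparison, 28 rose and 2 (Nlrc5 and Socs1) fell, where 19.9% of all genes rose and 15% fell, 35% in all. The median log2 difference of the 52 genes was 0.25 with p62, 0.33 without p62 and 0.30 for the mean. Over all genes tested these medians were -0.0091, -0.0195 and -0.0218. Because the genes were chosen with earlier results of these data known, these shares describe the list and are no independent test of it.

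The size of the count depended on single mice. With p62 it was 7 without HD;p62+/+ replicate 1, without HD;p62+/+ replicate 3 or without NT;p62+/+ replicate 1, 10 without NT;p62+/+ replicate 3 and 11 without HD;p62-/- replicate 3. Without p62 it was 13 of 52 when HD;p62-/- replicate 2 was left out. The count over all genes moved too, from 1366 with p62 to between 398 and 441 without those first 3 mice, and to 1273 from 4172 in the knockouts. For the mean HD difference it stayed between 26 and 30 whichever mouse was left out. Of the 17, 22 and 30 genes called in these comparisons, 2, 9 and 20 were called under every alternative that tested them. In bulk tissue, more RNA per cell and more cells of an expressing type cannot be told apart.

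Most of the genes called with p62 were also called without it. Of the 17 genes called with p62 and the 22 called without it, 16 were in both sets and rose in both: Gbp3, Ifih1, Ifit1, Ifit3, Ifitm3, Ifngr2, Irf7, Irf9, Irgm1, Lgals3bp, Oasl2, Parp12, Parp14, Rtp4, Trim25 and Usp18. These comparisons share no array. How many of all genes were called in both was not counted, so this overlap is not shown to be particular to these genes. The HD differences had the same sign in 44 of the 52 genes (84.6%), against 80.8% of all genes, and both were positive in 39 (75.0%), against 38.0% of all genes. The 3 HD mice lay above the 3 non-transgenic mice, with no overlap, for 29 of the 52 genes with p62 and 28 without, where this held for 17.8% and 22.3% of all genes. They lay below for 1 and 2 genes, where it held for 15.3% and 17.2% of all genes. With both genotypes pooled, all 6 HD mice lay above all 6 non-transgenic mice for 21 of the 52 genes (10.5% of all genes) and below them for 0 (5.69% of all genes).

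**Figure D1:**
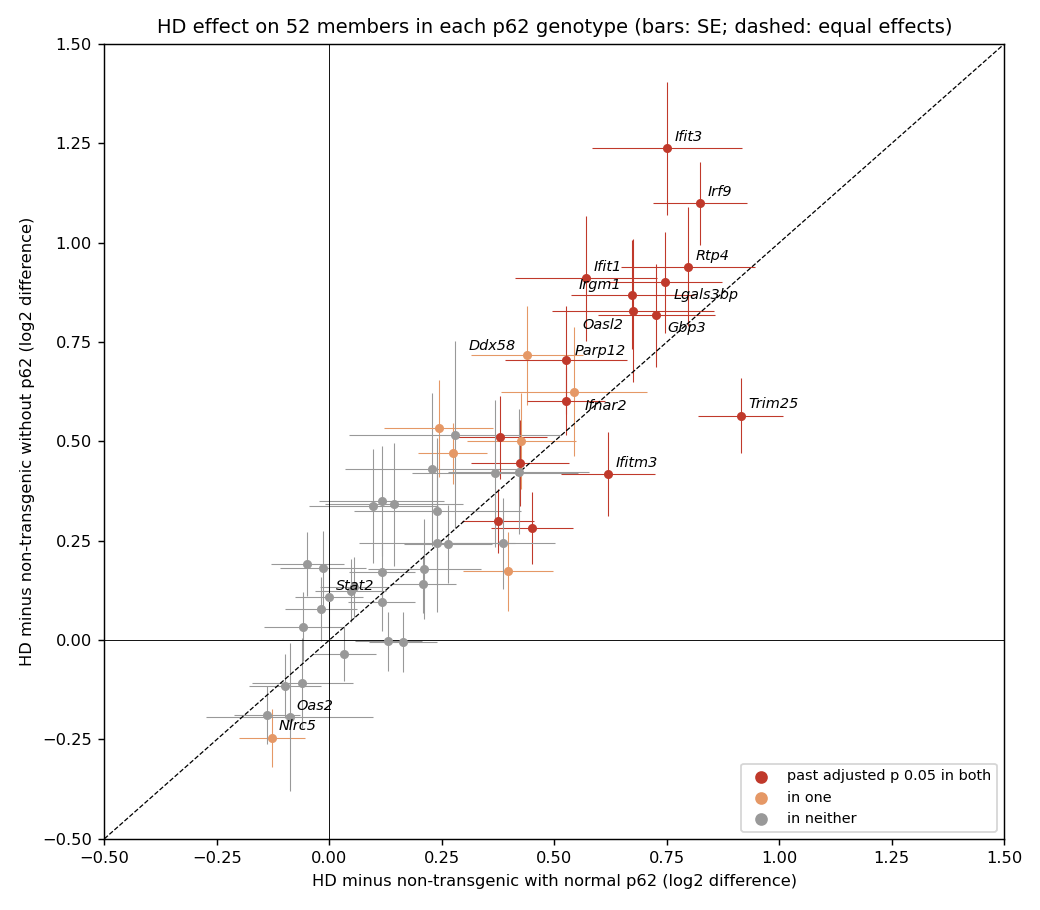
HD minus non-transgenic log2 difference of each of the 52 genes in mice with normal p62 (x axis) and in p62 knockouts (y axis), with SE bars. Ifit3, Irf9, Rtp4 and Lgals3bp lie far from 0 on both axes, Trim25 lies furthest right of the dashed line of equal effects, and Oas2, Stat2 and Nlrc5 lie near 0 or below it.

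At the start of the pathway, 3 of 4 interferon receptor chains rose in at least 1 HD comparison, and both kinases did not pass the test. In non-transgenic mice Ifnar2 lay at 8.27, 8.24 and 8.30 with p62 and at 8.42, 8.55 and 7.85 without it. In HD mice Ifnar2 lay at 8.99, 8.63 and 8.82 with p62 and at 8.66, 9.04 and 8.99 without it. All 6 HD mice lay above all 6 non-transgenic mice for this chain of the type I receptor, and NT;p62-/- replicate 3 was the lowest. Ifnar2 rose by 0.63 ± 0.16 (SE) in the knockouts (limma, adjusted p = 0.0207), and its difference with p62 was 0.54 ± 0.16 (adjusted p = 0.0629). Its call in the knockouts was lost under 7 of 24 alternatives (limma, adjusted p up to 0.237). In non-transgenic mice Ifnar1 lay at 8.64, 8.58 and 8.36 with p62 and at 8.57, 8.71 and 8.43 without it. In HD mice Ifnar1 lay at 8.80, 8.71 and 8.87 with p62 and at 8.70, 8.82 and 8.92 without it. The groups with p62 did not overlap, and HD;p62-/- replicate 1 lay just below NT;p62-/- replicate 2. Ifnar1, the partner chain, rose by 0.25 ± 0.069 for the mean HD difference (adjusted p = 0.0153) but passed in neither genotype alone (adjusted p = 0.115 and 0.0904).

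Of the interferon gamma receptor chains, Ifngr2 was the one that rose. In non-transgenic mice Ifngr2 lay at 9.51, 9.59 and 9.30 with p62 and at 9.37, 9.57 and 9.18 without it. In HD mice Ifngr2 lay at 9.88, 9.81 and 9.86 with p62 and at 9.78, 9.88 and 9.998 without it. The HD mice and the non-transgenic mice did not overlap. Ifngr2 rose by 0.38 ± 0.10 (SE) with p62 and by 0.51 ± 0.10 without it (limma, adjusted p = 0.049 and 0.00863). The call with p62 was lost under 16 of 24 alternatives (adjusted p up to 0.354). The ligand-binding chain Ifngr1 ran from 9.43 to 9.87 (median 9.69) in the 6 HD mice and from 9.54 to 9.69 (median 9.60) in the 6 non-transgenic mice, and its mean HD difference of 0.07 ± 0.057 did not pass (adjusted p = 0.344).

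Of the receptor kinases, Jak1 overlapped between HD and non-transgenic knockouts but not between the mice with p62, and Tyk2 overlapped in both genotypes. In non-transgenic mice Jak1 lay at 9.37, 9.24 and 9.26 with p62 and at 9.34, 9.34 and 8.90 without it. In HD mice Jak1 lay at 9.57, 9.45 and 9.48 with p62 and at 9.42, 9.56 and 9.14 without it. NT;p62-/- replicate 3 and HD;p62-/- replicate 3 were the lowest of their groups, and the mean HD difference was 0.20 ± 0.089 (adjusted p = 0.104). In non-transgenic mice Tyk2 lay at 8.06, 8.11 and 8.15 with p62 and at 8.21, 8.17 and 8.32 without it. In HD mice Tyk2 lay at 8.20, 8.37 and 8.13 with p62 and at 8.26, 8.20 and 8.22 without it. Its mean HD difference was 0.06 ± 0.052 (adjusted p = 0.349).

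Among the STAT and IRF factors, Irf9 stood highest above its non-transgenic level. In non-transgenic mice Irf9 lay at 7.54, 7.31 and 7.50 with p62 and at 7.25, 7.45 and 7.44 without it. In HD mice Irf9 lay at 8.36, 8.18 and 8.28 with p62 and at 8.32, 8.70 and 8.42 without it. Every HD mouse lay above every non-transgenic mouse, by at least 0.63 on the log2 scale. Irf9 rose by 0.82 ± 0.10 (SE) with p62 and by 1.10 ± 0.10 without it (limma, adjusted p = 0.00125 and 0.000184). For the mean HD difference this was 1.95-fold (adjusted p = 1.01e-05). Stat2, which pairs with Irf9 in the complex that binds ISRE, did not pass. In non-transgenic mice Stat2 lay at 8.22, 8.31 and 8.21 with p62 and at 8.20, 8.16 and 8.001 without it. In HD mice Stat2 lay at 8.31, 8.24 and 8.19 with p62 and at 8.31, 8.12 and 8.24 without it. These ranges overlapped in both genotypes, and the mean HD difference of Stat2 was 0.05 ± 0.054 (95% interval -0.06 to 0.17, adjusted p = 0.448).

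Irf7 and the other factors gave smaller differences. In non-transgenic mice Irf7 lay at 6.69, 6.84 and 6.81 with p62 and at 6.73, 6.99 and 7.02 without it. In HD mice Irf7 lay at 7.17, 7.15 and 7.15 with p62 and at 7.23, 7.21 and 7.19 without it. Irf7, the main inducer of type I interferon genes, did not overlap between HD and non-transgenic mice. Irf7 rose by 0.37 ± 0.08 (SE) with p62 and by 0.30 ± 0.08 without it (limma, adjusted p = 0.0198 and 0.023). Each of these calls was lost under 6 of 24 alternatives (limma, adjusted p up to 0.24 with p62 and 0.0846 without it). Irf2, a factor that competes with Irf1 for its sites, rose by 0.53 ± 0.12 in the knockouts (adjusted p = 0.0128) and differed by 0.24 ± 0.12 with p62 (adjusted p = 0.232). Irf3, the factor downstream of MAVS, and Stat3, a factor shared with cytokines of the interleukin 6 family, rose only for the mean HD difference, by 0.17 ± 0.052 and 0.14 ± 0.052 (adjusted p = 0.0221 and 0.0498). The Irf3 call was lost under 7 of 23 alternatives (adjusted p up to 0.145) and the Stat3 call under 16 of 23 alternatives (adjusted p up to 0.583). Irf5, known from Toll-like receptor signalling, gave 0.00 ± 0.049 (adjusted p = 0.998).

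Irf1, an early interferon gamma target, lies on chromosome 11 at 3.57 Mb from Sqstm1 in the gene table used, and so near the knocked-out locus. In non-transgenic mice Irf1 lay at 7.70, 7.75 and 7.62 with p62 and at 7.66, 7.53 and 7.79 without it. In HD mice Irf1 lay at 7.64, 7.80 and 7.77 with p62 and at 7.82, 7.80 and 7.73 without it. The ranges overlapped, and the mean HD difference was 0.09 ± 0.056 (adjusted p = 0.238). Irf1 was the one gene of the 52 with 2 probe sets. The dimmer one gave group means of 7.21 and 7.14 in non-transgenic and HD mice with p62, and 7.25 and 7.19 without it, so that its HD differences pointed the other way.

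Of the sensing genes, both cytosolic RNA receptors and the ubiquitin ligase Trim25 rose, and the adaptor Mavs did not pass. In non-transgenic mice Ddx58 lay at 6.79, 6.48 and 6.79 with p62 and at 6.75, 6.85 and 6.47 without it. In HD mice Ddx58 lay at 7.10, 7.09 and 7.18 with p62 and at 7.20, 7.60 and 7.43 without it. All 6 HD mice were above all 6 non-transgenic mice, and HD;p62-/- replicate 2 was the highest. Ddx58, encoding RIG-I, rose by 0.72 ± 0.12 in the knockouts (1.64-fold, adjusted p = 0.00427), and its difference of 0.44 ± 0.12 with p62 just missed the threshold (adjusted p = 0.0526). In non-transgenic mice Ifih1 lay at 6.44, 6.46 and 6.59 with p62 and at 6.81, 6.56 and 6.57 without it. In HD mice Ifih1 lay at 6.93, 6.89 and 7.02 with p62 and at 6.91, 7.07 and 6.82 without it. These groups did not overlap either, but NT;p62-/- replicate 1 and HD;p62-/- replicate 3 nearly met. Ifih1 rose by 0.45 ± 0.091 (SE) with p62 and by 0.28 ± 0.091 without it (limma, adjusted p = 0.0151 and 0.0435). The call without p62 was lost under 16 of 24 alternatives (adjusted p up to 0.327).

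Trim25 attaches the ubiquitin chains that help RIG-I to signal. In non-transgenic mice Trim25 lay at 5.39, 5.42 and 5.59 with p62 and at 5.76, 5.70 and 5.90 without it. In HD mice Trim25 lay at 6.52, 6.38 and 6.24 with p62 and at 6.46, 6.22 and 6.38 without it. The lowest values were those of the non-transgenic mice with p62, and the p62 knockouts without the HD transgene lay between them and the HD mice. Trim25 rose by 0.91 ± 0.094 (SE) with p62 and by 0.56 ± 0.094 without it (limma, adjusted p = 0.000411 and 0.00354). With p62 this was 1.89-fold, the difference with the smallest adjusted p of the 52 genes in that comparison. The mean level of Trim25 was low, at percentile 13.7 of all genes.

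Dhx58 encodes LGP2, the third RIG-I-like helicase, which tunes the other two. In non-transgenic mice Dhx58 lay at 6.24, 6.26 and 6.58 with p62 and at 6.39, 6.34 and 6.19 without it. In HD mice Dhx58 lay at 6.23, 6.58 and 6.62 with p62 and at 6.70, 6.86 and 6.40 without it. The groups overlapped with p62 and did not overlap in the knockouts, where the difference of 0.35 ± 0.14 did not pass (adjusted p = 0.0856). In non-transgenic mice Mavs lay at 7.98, 8.21 and 8.16 with p62 and at 8.02, 7.90 and 8.18 without it. In HD mice Mavs lay at 8.14, 8.09 and 8.08 with p62 and at 8.09, 8.37 and 8.18 without it. Mavs overlapped in both genotypes (mean HD difference 0.08 ± 0.067, adjusted p = 0.341). The editing enzyme Adar, which marks cellular RNA as self, and Zbp1, a sensor of left-handed nucleic acid, gave 0.03 ± 0.057 and -0.11 ± 0.057 (adjusted p = 0.697 and 0.157).

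**Figure D2:**
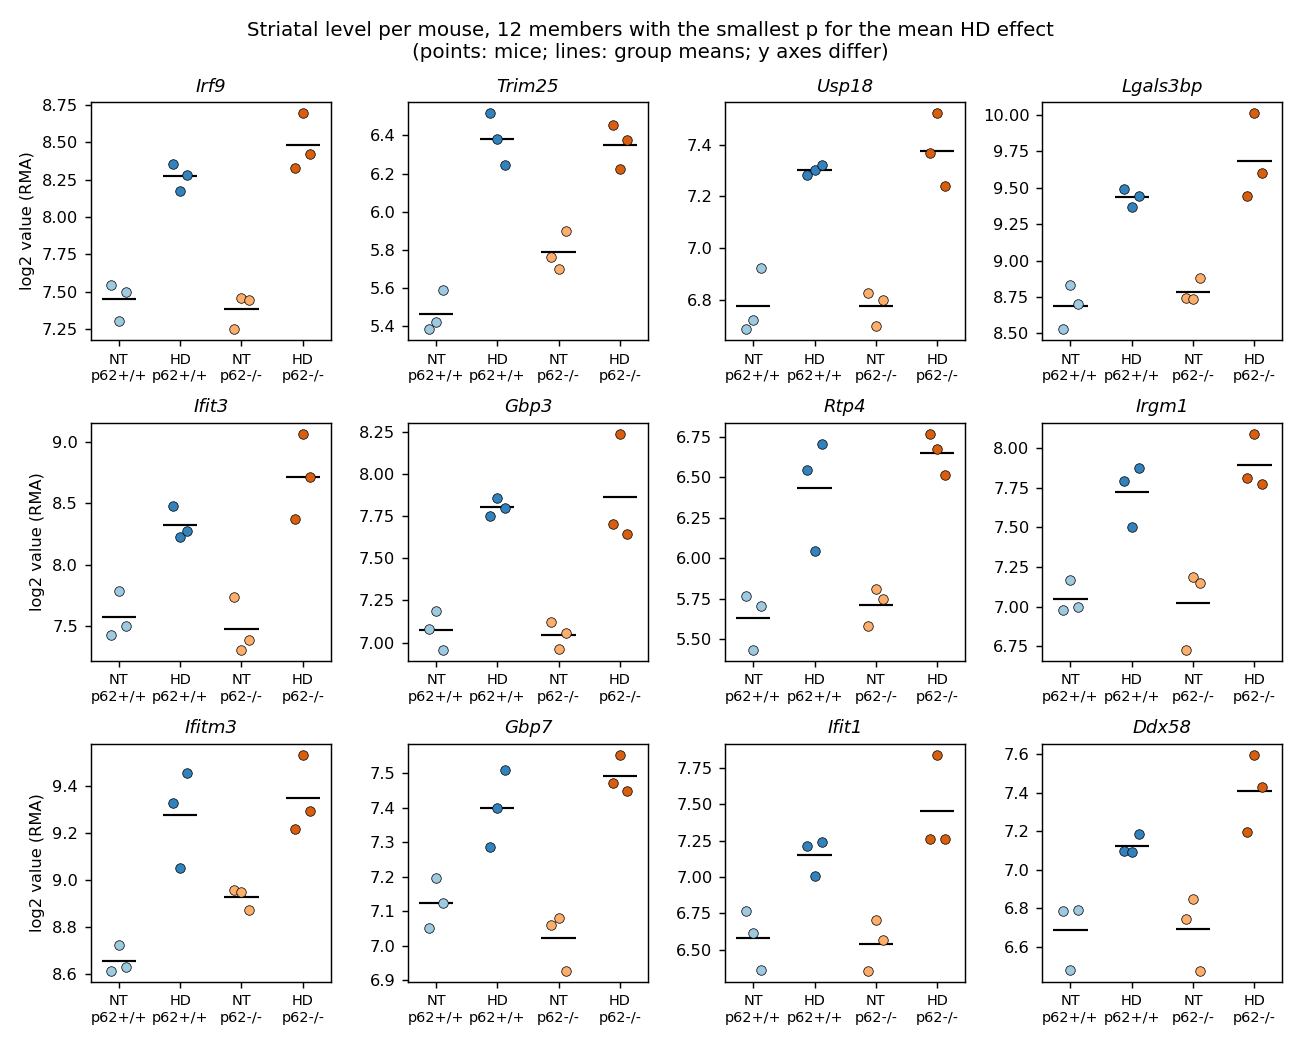
Log2 level in each of the 12 mice (points) with group means (lines) for the 12 genes with the smallest p for the mean HD difference, each panel with its own axis. In each panel all 6 HD mice lie above all 6 non-transgenic mice, and HD;p62-/- replicate 2 is the highest point for Irf9, Usp18, Lgals3bp, Ifit3, Gbp3, Irgm1, Ifitm3, Gbp7, Ifit1 and Ddx58.

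Promoter sequences of these genes were searched for the elements through which the pathway acts. RefSeq windows (GRCm38.p6) from 250 bases before to 50 bases after the gene start were matched for 41 of the 52 genes and searched on both strands for the core of the ISRE, GAAANNGAA, where N is any base and matches may overlap. The core occurred in 20 of the 41 genes (48.8%) and in 9.8% of the 27025 genes with a window. It occurred in 12 of 25 genes that rose for the mean HD difference (48.0%) and in 8 of 16 that did not. The GAS core, TTCNNNGAA, occurred in 10 of the 41 (24.4%) and in 9.6% of all genes. A match is a run of letters, not a shown binding site. The 2 windows of Irf9 held neither.

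The 160 bases before the start are printed below 5′ to 3′ on the gene's own strand, with every base inside a match to the ISRE core in capitals. The choice of these 7 genes was made after their values were seen. The first 4 rose in HD mice, and the last 3 carry the same core and did not pass the test.
Ifit3, chr19:34583369-34583528, plus strand: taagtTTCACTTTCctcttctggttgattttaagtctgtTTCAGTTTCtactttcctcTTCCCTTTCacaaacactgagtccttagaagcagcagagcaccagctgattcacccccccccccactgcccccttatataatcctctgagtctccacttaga
Ifit1, chr19:34640729-34640888, plus strand: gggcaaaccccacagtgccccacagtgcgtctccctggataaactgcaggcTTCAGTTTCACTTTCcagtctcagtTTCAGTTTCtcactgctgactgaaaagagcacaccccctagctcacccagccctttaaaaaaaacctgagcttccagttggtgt
Gbp3, chr3:142559884-142560043, plus strand: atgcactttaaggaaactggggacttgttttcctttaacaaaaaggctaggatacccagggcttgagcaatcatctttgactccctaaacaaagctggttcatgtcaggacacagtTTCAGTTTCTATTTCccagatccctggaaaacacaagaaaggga
Irgm1, chr11:48871421-48871580, minus strand: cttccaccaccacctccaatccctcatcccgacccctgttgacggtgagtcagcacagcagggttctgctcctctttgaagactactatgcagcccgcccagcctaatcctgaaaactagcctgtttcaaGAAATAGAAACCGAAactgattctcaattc
Oas3, chr5:120777660-120777819, minus strand: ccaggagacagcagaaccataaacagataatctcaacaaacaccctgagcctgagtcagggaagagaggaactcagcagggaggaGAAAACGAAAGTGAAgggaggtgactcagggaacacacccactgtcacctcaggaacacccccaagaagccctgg
Bst2, chr8:71537473-71537632, minus strand: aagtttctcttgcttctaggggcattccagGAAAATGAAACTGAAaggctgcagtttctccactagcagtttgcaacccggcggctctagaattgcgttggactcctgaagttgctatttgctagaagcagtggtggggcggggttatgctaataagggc
Rsad2, chr12:26456453-26456612, minus strand: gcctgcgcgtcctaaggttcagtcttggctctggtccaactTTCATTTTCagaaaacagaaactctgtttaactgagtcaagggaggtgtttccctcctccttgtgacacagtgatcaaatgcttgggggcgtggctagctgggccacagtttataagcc

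The promoters of Ifit3 and Ifit1 each hold 3 matches in this stretch, those of Gbp3, Irgm1, Oas3 and Bst2 hold 2, and that of Rsad2 holds 1. Genes with more than 1 match stand on both sides of the test.

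The IFIT proteins bind foreign RNA ends and block its translation. In non-transgenic mice Ifit3 lay at 7.43, 7.79 and 7.50 with p62 and at 7.74, 7.31 and 7.39 without it. In HD mice Ifit3 lay at 8.48, 8.22 and 8.27 with p62 and at 8.37, 9.06 and 8.72 without it. Every HD mouse lay above every non-transgenic mouse, and HD;p62-/- replicate 2 was the highest. Ifit3 rose by 0.75 ± 0.17 (SE) with p62 and by 1.24 ± 0.17 without it (limma, adjusted p = 0.0233 and 0.00122). In the knockouts this was 2.36-fold. With p62 the Ifit3 call was lost under 7 of 24 alternatives (limma, adjusted p up to 0.364). In non-transgenic mice Ifit1 lay at 6.77, 6.62 and 6.36 with p62 and at 6.36, 6.70 and 6.57 without it. In HD mice Ifit1 lay at 7.21, 7.01 and 7.24 with p62 and at 7.26, 7.84 and 7.26 without it. The HD and non-transgenic mice were again apart, with HD;p62-/- replicate 2 well above the rest. Ifit1 rose by 0.57 ± 0.16 (SE) with p62 and by 0.91 ± 0.16 without it (limma, adjusted p = 0.0493 and 0.00431). Under 15 of 24 alternatives (adjusted p up to 0.332) the call with p62 did not hold. Ifit2 ran from 5.52 to 6.17 (median 5.75) in the 6 HD mice and from 5.13 to 5.81 (median 5.53) in the 6 non-transgenic mice, and its mean HD difference of 0.28 ± 0.13 did not pass (adjusted p = 0.111).

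Of the 5 measured interferon-induced GTPases, which attack vacuoles that hold pathogens or trap viral capsids, 3 rose. In non-transgenic mice Gbp3 lay at 7.08, 7.19 and 6.96 with p62 and at 7.12, 6.96 and 7.05 without it. In HD mice Gbp3 lay at 7.75, 7.86 and 7.80 with p62 and at 7.71, 8.24 and 7.64 without it. Apart from HD;p62-/- replicate 2, the HD mice lay close together. Gbp3 rose by 0.73 ± 0.13 (SE) with p62 and by 0.82 ± 0.13 without it (limma, adjusted p = 0.0089 and 0.00298). In non-transgenic mice Gbp7 lay at 7.05, 7.20 and 7.12 with p62 and at 7.06, 7.08 and 6.93 without it. In HD mice Gbp7 lay at 7.29, 7.40 and 7.51 with p62 and at 7.47, 7.55 and 7.45 without it. HD and non-transgenic mice did not overlap. Gbp7, another guanylate-binding protein, rose by 0.47 ± 0.077 in the knockouts (adjusted p = 0.0033) and missed the threshold with p62 (0.27 ± 0.077, adjusted p = 0.0511).

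Irgm1, an immunity-related GTPase known for its role in autophagy of pathogens, lies 1.33 Mb from Sqstm1 on chromosome 11. In non-transgenic mice Irgm1 lay at 6.98, 7.17 and 7.0 with p62 and at 6.73, 7.19 and 7.15 without it. In HD mice Irgm1 lay at 7.79, 7.50 and 7.87 with p62 and at 7.81, 8.09 and 7.77 without it. HD and non-transgenic mice did not overlap in either genotype, and NT;p62-/- replicate 1 was the lowest. Irgm1 rose by 0.67 ± 0.14 (SE) with p62 and by 0.87 ± 0.14 without it (limma, adjusted p = 0.0155 and 0.0029). Its call with p62 was lost under 6 of 24 alternatives (limma, adjusted p up to 0.26). The myxovirus resistance genes Mx1 and Mx2 did not pass, with mean HD differences of 0.24 ± 0.12 and 0.24 ± 0.11 (adjusted p = 0.141 and 0.0998).

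Of 3 genes of the OAS family, Oasl2 rose and the others did not pass. In non-transgenic mice Oasl2 lay at 7.22, 7.98 and 7.66 with p62 and at 7.57, 7.68 and 8.03 without it. In HD mice Oasl2 lay at 8.15, 8.30 and 8.44 with p62 and at 8.37, 8.80 and 8.60 without it. The groups did not overlap, and NT;p62+/+ replicate 1 was the lowest of all mice. Oasl2 rose by 0.68 ± 0.18 (SE) with p62 and by 0.83 ± 0.18 without it (limma, adjusted p = 0.044 and 0.0108). The call with p62 was lost under 13 of 24 alternatives (adjusted p up to 0.426). Oas2 and Oas3, which make the messenger that activates RNase L, gave mean HD differences of -0.14 ± 0.13 and -0.01 ± 0.061 (adjusted p = 0.413 and 0.881). Oas2 ran from 7.26 to 7.64 (median 7.35) in the 6 HD mice and from 7.06 to 8.01 (median 7.48) in the 6 non-transgenic mice, so the groups overlapped fully.

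Of 5 membrane and secreted products 2 rose. In non-transgenic mice Lgals3bp lay at 8.53, 8.83 and 8.70 with p62 and at 8.74, 8.73 and 8.88 without it. In HD mice Lgals3bp lay at 9.49, 9.37 and 9.44 with p62 and at 9.44, 10.01 and 9.60 without it. All HD mice were above all non-transgenic mice by at least 0.49. Lgals3bp rose by 0.75 ± 0.13 (SE) with p62 and by 0.90 ± 0.13 without it (limma, adjusted p = 0.00725 and 0.00156). Lgals3bp encodes a secreted glycoprotein that binds galectins. In non-transgenic mice Ifitm3 lay at 8.62, 8.72 and 8.63 with p62 and at 8.96, 8.95 and 8.87 without it. In HD mice Ifitm3 lay at 9.33, 9.05 and 9.45 with p62 and at 9.22, 9.53 and 9.29 without it. HD mice were higher in both genotypes, and the non-transgenic mice without p62 lay above those with it. Ifitm3, which blocks entry of viruses through endosomes, rose by 0.62 ± 0.10 and 0.42 ± 0.10 (adjusted p = 0.00717 and 0.0183).

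The other 3 products of this kind did not pass. Rsad2, encoding viperin, ran from 6.47 to 7.16 (median 6.59) in the 6 HD mice and from 6.24 to 6.64 (median 6.51) in the 6 non-transgenic mice (mean HD difference 0.22 ± 0.10, adjusted p = 0.111). Bst2, encoding the virus tether tetherin, gave 0.08 ± 0.054, and the chemokine Cxcl10 gave -0.08 ± 0.08 (adjusted p = 0.258 and 0.421).

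Of the PARP group, enzymes that attach ADP-ribose and their partner Dtx3l, 3 of 4 rose in HD mice. In non-transgenic mice Parp12 lay at 8.35, 8.55 and 8.09 with p62 and at 8.46, 8.39 and 8.13 without it. In HD mice Parp12 lay at 8.95, 8.68 and 8.94 with p62 and at 8.87, 9.22 and 9.004 without it. HD and non-transgenic mice did not overlap. Parp12 rose by 0.53 ± 0.14 (SE) with p62 and by 0.70 ± 0.14 without it (limma, adjusted p = 0.0389 and 0.00665). Under 10 of 24 alternatives (adjusted p up to 0.407) the call with p62 did not hold. In non-transgenic mice Parp14 lay at 6.63, 6.93 and 6.70 with p62 and at 6.77, 6.68 and 7.04 without it. In HD mice Parp14 lay at 7.25, 7.22 and 7.06 with p62 and at 7.21, 7.41 and 7.22 without it. Here too the groups were apart, by 0.019 at the nearest point. Parp14 rose by 0.42 ± 0.11 (SE) with p62 and by 0.45 ± 0.11 without it (limma, adjusted p = 0.0384 and 0.0168). The call with p62 was lost under 11 of 24 alternatives (adjusted p up to 0.376). Dtx3l rose with p62, by 0.40 ± 0.10 (adjusted p = 0.0351), a call lost under 11 of 24 alternatives (adjusted p up to 0.26), and Parp9 did not pass (0.40 ± 0.17 for the mean HD difference, adjusted p = 0.0806).

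Of the remaining effectors, Rtp4 was the furthest from its non-transgenic level. In non-transgenic mice Rtp4 lay at 5.76, 5.43 and 5.70 with p62 and at 5.58, 5.81 and 5.75 without it. In HD mice Rtp4 lay at 6.54, 6.05 and 6.70 with p62 and at 6.77, 6.68 and 6.51 without it. HD;p62+/+ replicate 2 was the lowest HD mouse and still above every non-transgenic mouse. Rtp4 rose by 0.80 ± 0.15 (SE) with p62 and by 0.94 ± 0.15 without it (limma, adjusted p = 0.0113 and 0.00298). Rtp4 encodes a chaperone of membrane receptors. In non-transgenic mice Trim30a lay at 7.13, 6.93 and 7.33 with p62 and at 7.01, 6.84 and 7.32 without it. In HD mice Trim30a lay at 7.60, 7.57 and 7.50 with p62 and at 7.49, 7.63 and 7.55 without it. HD and non-transgenic mice did not overlap. Trim30a, a brake on NF-kB signalling, rose by 0.50 ± 0.12 in the knockouts (adjusted p = 0.0161) and missed the threshold with p62 (0.43 ± 0.12, adjusted p = 0.0536).

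For the mean HD difference alone, Sp100 (a nuclear body protein), Xaf1 (a pro-apoptotic factor) and Samd9l (a translation inhibitor) rose by 0.42 ± 0.11, 0.39 ± 0.13 and 0.32 ± 0.081 (limma, adjusted p = 0.013, 0.0352 and 0.0115). Xaf1 missed the threshold under 12 of 23 alternatives (adjusted p up to 0.251). Ifi27, Ifi35 and the antibody receptor Trim21 did not pass, with 0.33 ± 0.14, 0.11 ± 0.052 and 0.09 ± 0.054 (adjusted p = 0.079, 0.129 and 0.189). Nlrc5, the activator of MHC class I genes, was the effector that fell. It ran from 6.27 to 6.45 (median 6.36) in the 6 HD mice and from 6.45 to 6.65 (median 6.55) in the 6 non-transgenic mice and fell by 0.25 ± 0.073 in the knockouts (adjusted p = 0.0342), a call lost under 12 of 23 alternatives (adjusted p up to 0.335).

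The feedback regulators moved in opposite directions. In non-transgenic mice Usp18 lay at 6.69, 6.72 and 6.92 with p62 and at 6.83, 6.70 and 6.80 without it. In HD mice Usp18 lay at 7.28, 7.30 and 7.32 with p62 and at 7.37, 7.52 and 7.24 without it. Usp18, the protease that removes ISG15 and holds back IFNAR2 signalling, did not overlap between HD and non-transgenic mice. Usp18 rose by 0.53 ± 0.086 (SE) with p62 and by 0.60 ± 0.086 without it (limma, adjusted p = 0.00585 and 0.00169). Socs1, an inhibitor of JAK kinases, ran from 7.29 to 7.56 (median 7.40) in the 6 HD mice and from 7.49 to 7.65 (median 7.57) in the 6 non-transgenic mice. For the mean HD difference Socs1 fell by 0.16 ± 0.052 (adjusted p = 0.0301), missing the threshold under 10 of 23 alternatives (adjusted p up to 0.39), and it passed in neither genotype alone (adjusted p = 0.262 and 0.0834).

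Loss of p62 alone changed none of the 52 genes past the threshold. Among non-transgenic mice 0 of 52 were called by limma (2 at an unadjusted p below 0.05), where 0.0052% of all genes were called, that is Sqstm1 itself. Among HD mice 0 of 52 were called (2 at an unadjusted p below 0.05), with the same share of all genes. The median log2 difference was -0.0004 in non-transgenic and 0.064 in HD mice, where 38 of the 52 genes were higher without p62. Over all genes these medians were -0.0063 and -0.0022, and 49% of all genes were higher without p62 in HD mice. When HD;p62-/- replicate 2 was left out, the median of the 52 genes in HD mice was 0.038. These 2 comparisons share no mouse, but each shares its groups with the HD comparisons.

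The 4 differences at an unadjusted p below 0.05 were these. In non-transgenic mice Trim25 was 0.32 higher without p62 (95% interval 0.12 to 0.53, unadjusted p = 0.00513), with all 3 knockouts above the 3 mice with p62. Ifitm3 differed by 0.27 (0.04 to 0.50, unadjusted p = 0.0242), again with no overlap. In HD mice Ifit3 differed by 0.39 (0.03 to 0.76, unadjusted p = 0.0363) and overlapped, and Ddx58 by 0.28 (0.01 to 0.55, unadjusted p = 0.0409) without overlap. After adjustment by limma each of these 4 values was 1.0. In non-transgenic mice 6 genes lay higher and 2 lower without overlap, and in HD mice 5 and 0, where this held for 3.88% and 4% of all genes, and for 3.26% and 4.11%. The 95% interval lay within 0.5 of 0 for 46 of 52 genes in non-transgenic and for 39 in HD mice, and reached past 0.5 for the others.

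The genes near the knocked-out locus gave no call. Irgm1 differed by -0.03 ± 0.14 in non-transgenic and 0.17 ± 0.14 in HD mice, and Irf1 by -0.03 ± 0.079 and 0.05 ± 0.079 (SE, adjusted p = 1.0 for each).

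**Figure D3:**
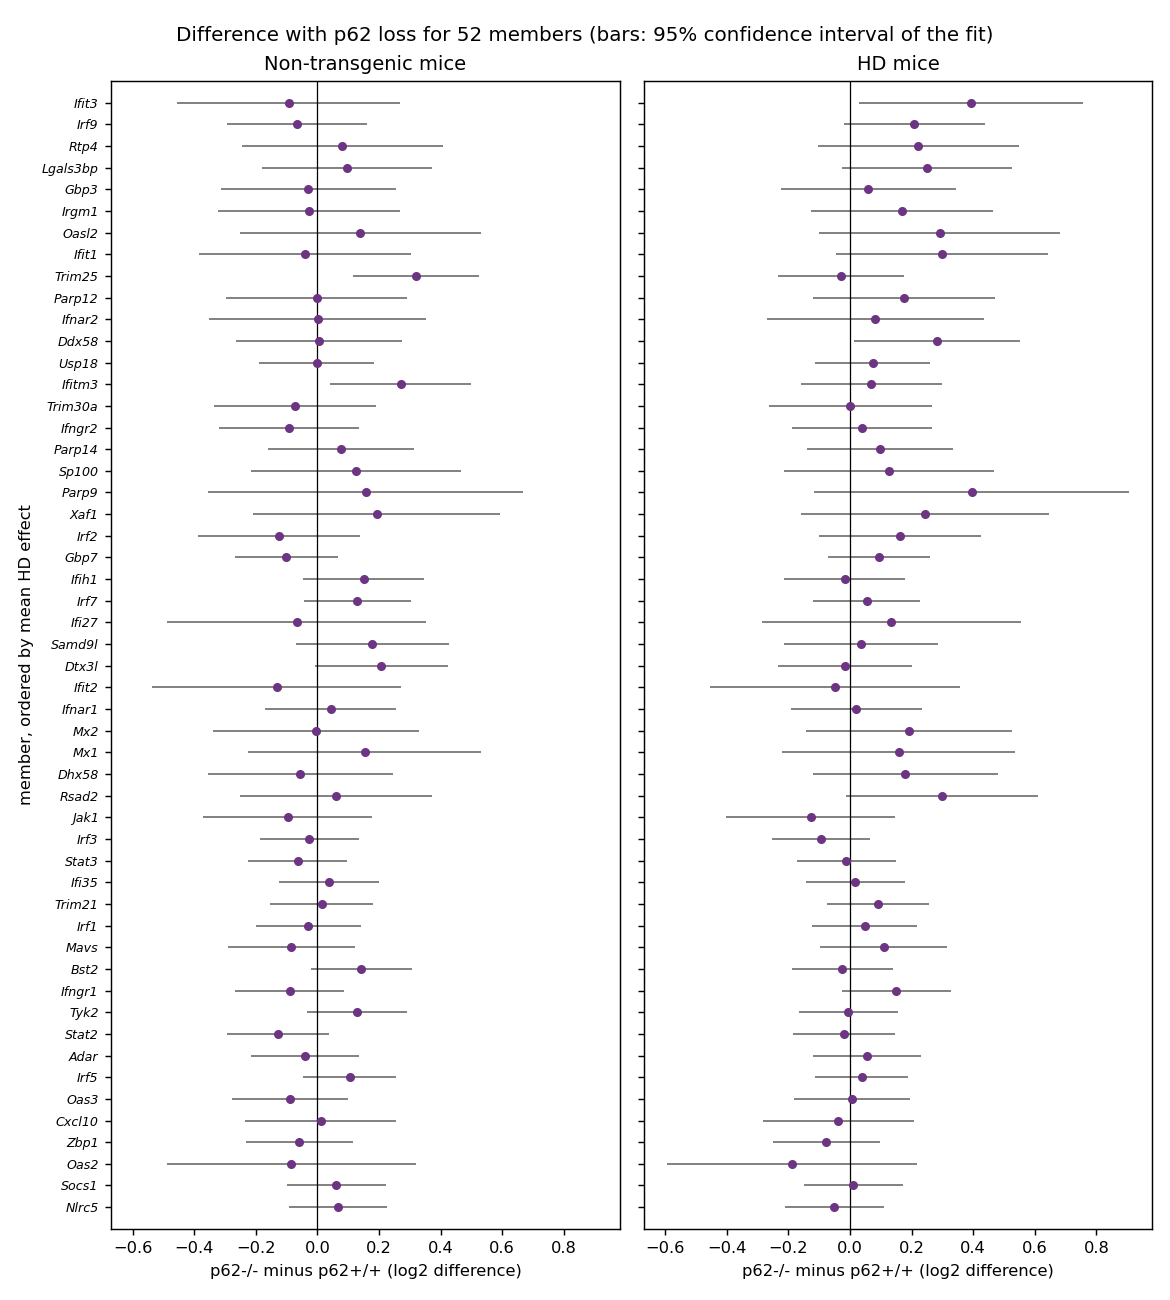
Log2 difference without p62 minus with p62 for each of the 52 genes in non-transgenic mice (left) and HD mice (right), with 95% intervals, ordered by the mean HD difference. Points on the left scatter around 0 and reach 0.32 (Trim25), and on the right 38 of 52 lie above 0, up to 0.39 (Ifit3 and Parp9).

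The HD difference itself did not differ past the threshold between p62 genotypes. For the difference of the HD differences 0 of 52 genes were called by limma (1 at an unadjusted p below 0.05), and 0% of all genes were. The HD difference was the larger one in size without p62 for 39 of the 52 genes (75.0%), against 65.5% of all genes. The HD difference of Ifit3 was larger by 0.49 without p62 (95% interval -0.03 to 1.00) and that of Irf9 by 0.28 (-0.05 to 0.60), both intervals including 0. Trim25 was the one at an unadjusted p below 0.05, with an HD difference smaller without p62 (difference -0.35, -0.64 to -0.06, unadjusted p = 0.0221, adjusted p = 0.991).

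The 7 genes past the threshold in one genotype alone were not told apart between genotypes. Their differences of the HD differences were 0.28 ± 0.18 for Ddx58, 0.20 ± 0.11 for Gbp7, 0.08 ± 0.23 for Ifnar2, 0.29 ± 0.17 for Irf2, 0.07 ± 0.17 for Trim30a, -0.12 ± 0.10 for Nlrc5 and -0.22 ± 0.14 for Dtx3l (SE, limma, adjusted p = 0.991 for each). The 95% interval lay within 0.5 of 0 for 29 of the 52 genes.

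A single mouse carried many of the highest values. HD;p62-/- replicate 2 was the highest of 12 mice for 25 of the 52 genes and for 17 of the 28 that rose. NT;p62+/+ replicate 1 was the lowest for 12 and for 10 of those 28. How often these mice were highest or lowest over all genes was not counted. The array of HD;p62-/- replicate 2 had the largest SD over all probe sets of the 12 (1.87). The mean of the 52 genes, each centred on its mean over all mice, was 0.30 in HD;p62-/- replicate 2 and 0.16 in each of the other HD knockouts. It lay between 0.089 and 0.145 in HD mice with p62, between -0.216 and -0.151 in non-transgenic mice with p62 and between -0.167 and -0.132 in non-transgenic knockouts. All 6 HD mice lay above all 6 non-transgenic mice, and the lowest HD values were those of mice with p62.

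Markers of cells that could carry an interferon response were set beside these values. Of all genes, 3.85% rose and 3.24% fell with p62, and 13.3% rose and 8.34% fell without it. Of 17 microglia markers, 0 passed with p62 (limma, 1 at an unadjusted p below 0.05) and 2 (11.8%) rose without it, Cd53 by 0.40 ± 0.082 and Ctss by 0.35 ± 0.092 (adjusted p = 0.0086 and 0.0208). The mean of the centred microglia markers ranged from -0.058 to 0.122 in non-transgenic and -0.002 to 0.086 in HD mice with p62, and from -0.097 to -0.043 and -0.066 to 0.113 in the knockouts, overlapping in both. Of 12 markers of peripheral immune cells, 0 rose and 1 (Cd4) fell with p62, and 0 rose and 3 (Cd4, Nkg7 and S100a9) fell without it. Their mean ranged from -0.013 to 0.086 and -0.125 to 0.045 with p62, and from 0.023 to 0.277 and -0.233 to -0.047 without it, in non-transgenic and HD mice. Endothelial markers gave 0 called of 9 with p62 (1 at an unadjusted p below 0.05) and 2 that fell without it. Of 10 astrocyte markers 9 were lower in HD mice of each p62 genotype. The 1 that was higher differed by 0.29 with p62 and by 0.19 without it. For the mean HD difference 1 marker rose, by 0.24, and 3 fell, where 19.9% of all genes rose and 15% fell. The glutamate transporter gene Slc1a2 fell by 0.32 ± 0.061 with p62 and by 0.27 ± 0.061 without it (adjusted p = 0.0122 and 0.0133). Fgfr3 fell without p62 (adjusted p = 0.0406), and 0 of these markers rose in either genotype alone. Their mean ranged from 0.006 to 0.171 in non-transgenic and -0.173 to -0.029 in HD mice with p62, and from 0.029 to 0.072 and -0.114 to -0.012 in the knockouts, so the groups did not overlap. Of 7 oligodendrocyte markers 1 fell with p62 and 2 without it, and 0 rose. The arrays carry no detection call here, so no marker can be called absent. The part of glial, immune and vascular cells in the interferon genes' differences was not tested.

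Choroid plexus, tissue beside the striatum in the ventricle, differed strongly between mice. The mean of its 9 markers ran from -0.808 to -0.376 in non-transgenic and from -0.88 to 0.584 in HD mice with p62, and from 0.422 to 0.654 and -0.881 to 1.333 in the knockouts. The value of 1.333 belongs to HD;p62-/- replicate 2. With loss of p62 in non-transgenic mice all 9 were higher (median 1.02), with 0 called (limma, 6 at an unadjusted p below 0.05). Among HD mice all 9 were also higher without p62 (median 0.39), with 0 called (limma, 0 at an unadjusted p below 0.05). With this mean as a covariate, 11 of the 52 genes were called with p62, 24 without p62 and 30 for the mean HD difference. Over all genes 653, 4503 and 6287 were then called, against 1366, 4172 and 6728 in the main fit. The spread of the arrays reached higher in HD mice, with overlap: the SD over all probe sets was 1.79 to 1.87 in HD and 1.73 to 1.82 in non-transgenic mice. With each array's SD as a covariate the counts were 13, 10 and 21 of the 52 genes. Over all genes they were 1176, 779 and 2223.

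**Figure D4:**
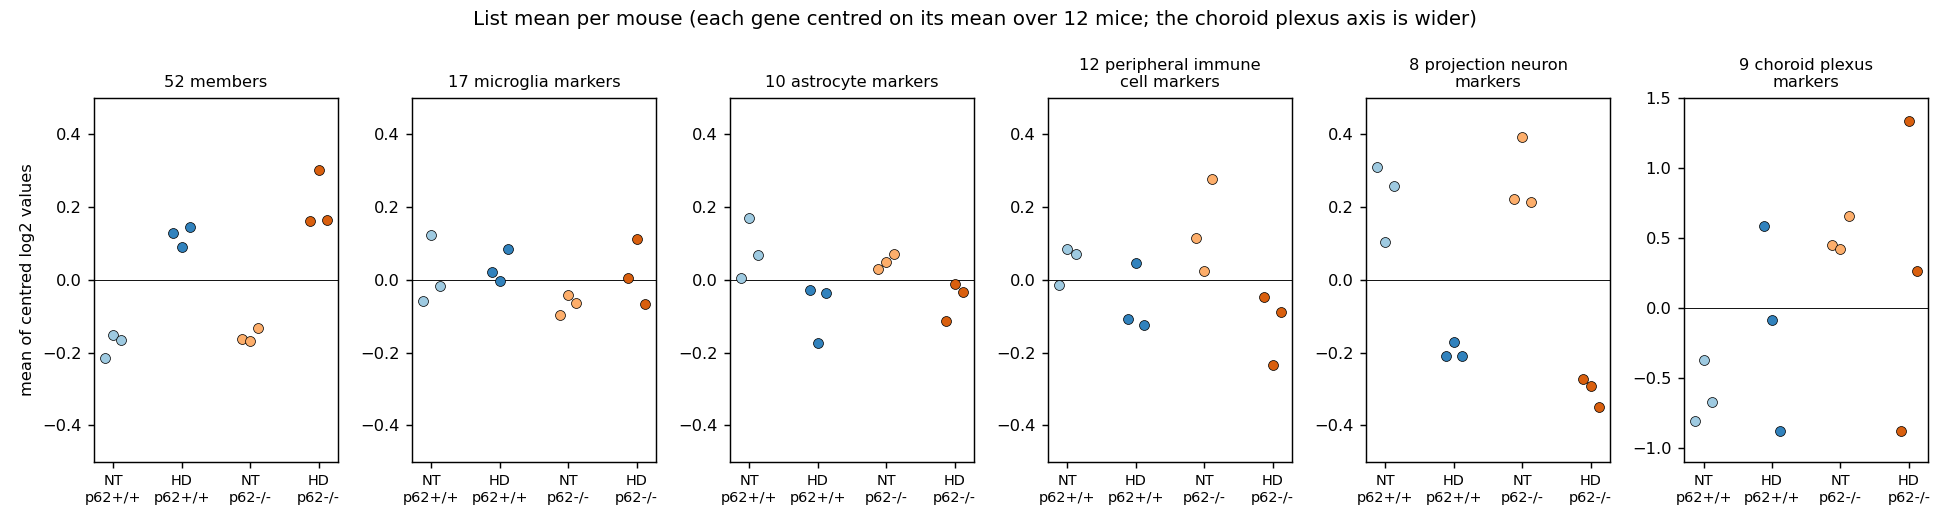
Mean of centred log2 values per mouse for the 52 interferon genes and for markers of microglia, astrocytes, peripheral immune cells, projection neurons and choroid plexus, by group. The 52 genes separate HD from non-transgenic mice in both p62 genotypes (lowest HD mouse 0.089, highest non-transgenic mouse -0.132), the microglia markers overlap, the astrocyte and projection neuron markers are lower in HD mice, and the choroid plexus markers spread most within a group.

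Genes of the pathway beyond these 57 were counted from a wider list of 120, of which 100 were measured. With p62, 7 rose and 1 (Ifi208) fell, without p62 17 rose and 1 (Nlrx1) fell, and for the mean HD difference 24 rose and 6 fell (Nlrx1, Irf4, Irf8, Tlr9, Helz2 and Trim34a), against 3.85% and 3.24%, 13.3% and 8.34%, and 19.9% and 15% of all genes. Ifi208, Irf4, Irf8, Tlr9, Helz2 and Trim34a stand outside the naming rule and were named after their values were seen, because they fell. The median log2 difference of the list was 0.056, 0.081 and 0.055 in these comparisons. For either comparison of p62 genotypes and for the difference of the HD differences, 0 of 100 were called (limma, 4, 7 and 2 at an unadjusted p below 0.05).

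The interferon genes themselves did not pass. Of 7 measured ligands 0 were called for the mean HD difference (limma, 0 at an unadjusted p below 0.05), and 6 of the 7 were lower in HD mice. Ifnb1, encoding interferon beta, gave -0.12 ± 0.064 and Ifng, encoding interferon gamma, gave -0.09 ± 0.063 (SE, adjusted p = 0.159 and 0.274). Both stand outside the naming rule and were picked after their values were seen.

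Of 16 further RNA sensing genes, 8 rose for the mean HD difference (50%, against 19.9% of all genes) and 0 fell, where 15% of all genes fell. Ddx60, a helicase that helps RIG-I, rose by 0.57 ± 0.086 for the mean HD difference and Eif2ak2, the RNA-activated kinase PKR, by 0.49 ± 0.089 (limma, adjusted p = 0.000759 and 0.00202). The helicases Dhx36 and Dhx9 rose by 0.32 ± 0.048 and 0.27 ± 0.067, the cofactor of RNA binding Zcchc3 by 0.23 ± 0.048 and the ubiquitin ligase Traf6, which acts after MAVS, by 0.23 ± 0.048. The 6 genes passed at adjusted p of 0.000684 to 0.00928. Ddx60, Eif2ak2 and Dhx36 also rose in each p62 genotype alone (adjusted p = 0.0483, 0.0374 and 0.0272 with p62 and 0.00435, 0.0201 and 0.00584 without).

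Among 10 negative regulators 3 rose for the mean HD difference (30%, against 19.9% of all genes) and 1 fell, where 15% of all genes fell. The phosphatases Ptpn1 and Ptpn2, which switch off JAK and STAT proteins, rose by 0.43 ± 0.067 and 0.36 ± 0.076, and the deubiquitinase Usp25 by 0.35 ± 0.068 (limma, adjusted p = 0.000981, 0.00404 and 0.00307). Nlrx1, a mitochondrial inhibitor of MAVS signalling, fell by 0.19 ± 0.041 (adjusted p = 0.0044). Among 9 DNA sensing genes 2 rose (22.2%, against 19.9% of all genes) and 1 (Tlr9) fell, where 15% of all genes fell. Samhd1, which degrades nucleotides, and Rnaseh2b, a subunit of the enzyme that cuts RNA in hybrids with DNA, rose by 0.41 ± 0.065 and 0.38 ± 0.069 (adjusted p = 0.000981 and 0.00196).

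Of 45 further effectors 8 rose (17.8%, against 19.9% of all genes) and 2 fell. Rnf213, a large ubiquitin ligase, rose by 0.57 ± 0.064 and had the smallest adjusted p of the wider list (0.000131). Zc3hav1, the antiviral zinc finger protein ZAP, and Pnpt1, an exonuclease of mitochondrial RNA, rose by 0.36 ± 0.076 and 0.38 ± 0.082 (limma, adjusted p = 0.00434 and 0.00497). Of 10 further signalling factors 3 rose (30%) and 2 fell, where 19.9% of all genes rose and 15% fell. Of 3 further receptors and kinases 0 were called (limma, 1 at an unadjusted p below 0.05).

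**Figure D5:**
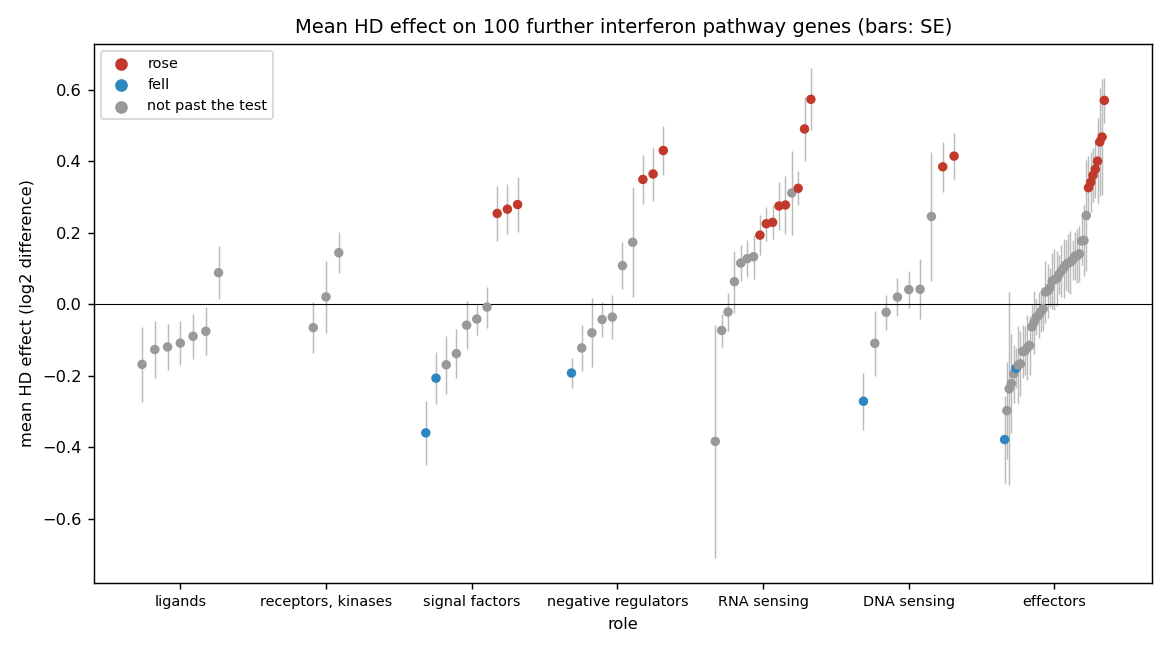
Mean HD difference (log2, with SE) of the 100 further pathway genes by role, ordered by value within each role. RNA sensing holds 8 genes that rose (red) of 16 and none that fell (blue), while the 7 ligands lie between -0.17 and 0.09 with none past the test.

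Several of these families (Ifit, Gbp, Oas, Trim30, Ifitm) have close relatives in the mouse genome, and hybridisation of one gene's transcript to another's probes was not tested.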

How the data were processed

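For each of the 12 mice, 100 ng of striatal RNA was put on an Affymetrix whole-transcript array (source: the labels' protocols). The deposited file holds log2 levels, 1 per probe set and mouse, which the authors computed by RMA according to the submitters' processing notes. The RMA version and settings and the probes' genome build were not given in the sources used here. No detection calls were used. RMA brings arrays towards a common distribution, which can hide changes common to most genes. The deposited arrays were not on 1 identical distribution: their SDs over all probe sets ran from 1.73 to 1.87. The values run from 1.99 to 13.77. Arrays have no read depth, and the number of mice limits the precision.

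Of 24055 probe sets, 19942 had 1 symbol in the platform annotation, 1225 more than 1 and 2888 no entry. Entrez gene IDs matched RefSeq's gene table (GRCm38.p6) for 19886, with 0 symbols differing. The brightest probe set per gene left 19248 genes. Groups and replicate numbers came from the titles, which call the samples biological replicates, and the spread behind each p-value is that between these samples.

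limma 3.58.1 (R 4.3.3, lmFit and eBayes) fitted 1 mean per group to 12 arrays (8 residual and 4.14 prior degrees of freedom). Within a contrast, Benjamini-Hochberg adjustment ran over all genes, with a threshold of 0.05. SE and 95% intervals come from this fit, which was tested on simulated data. The 57 genes, the wider list, the markers and the tests were chosen with earlier results of these data known. By rule, values in every mouse were given for the 20 genes with the smallest p for the mean HD difference, genes within 10 Mb of Sqstm1 and the signal chain and sensors, and the 15 smallest p named genes of the wider list. Figures were drawn with matplotlib 3.10.9. Alternatives were a replicate block, quantile normalization again, equal array medians, a filter at the 25th percentile of level, averaged probe sets, trended and robust variances, array SD or choroid plexus mean as covariates, arrays or single mice left out, only the groups compared and a threshold of 0.01.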

Additional observations from a re-analysis of the deposited data

How the results depend on the processing

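Of the genes called with p62, without p62 and for the mean HD difference, 0 changed sign under any alternative run. These were 406, 525 and 686 refits of single genes, and 107, 61 and 59 of them missed the threshold. The absence of sign changes is no test, since the genes were picked for passing on these same data. A threshold of 0.01, trended and robust variances and only the groups compared leave the difference itself unchanged. So does a mouse left out of a group that is not compared. Irf9 and Trim25 were called with p62 in every refit they entered, 9 genes without p62 and 20 for the mean HD difference. Trim25 and Rtp4 lay low, at percentiles 13.7 and 15 of level, and did not enter the fit with the 25th percentile filter. Without the 3 arrays of smallest SD, 1 non-transgenic mouse with p62 is left, which is assumed to vary like the other groups. Fewer genes were then called with p62, among the 52 and over all genes, and the median difference of the 52 was 0.23. With p62 the count of 17 became 11 with the choroid plexus mean in the fit and 6 at a threshold of 0.01. Over all genes 1366 became 653 and 276. With 1 mouse left out the count with p62 was 7 to 21 (7 to 17 of them among the 17). Without p62 the count of 22 became 10 with array SD as a covariate and 13 at a threshold of 0.01. Over all genes 4172 became 779 and 969. With 1 mouse left out the count without p62 was 13 to 23 (13 to 22 of them among the 22). Apart from the stricter threshold, the cause was not tested. For the mean HD difference the settings gave 21 to 33 calls, 20 to 30 of them among the first 30. For both comparisons of p62 genotypes and the difference of the HD differences all settings gave 0. Leaving out 3 arrays whose SD stands apart in their own group (HD;p62+/+ replicate 2, NT;p62-/- replicate 3 and HD;p62-/- replicate 1), an alternative chosen after seeing the data, gave 21, 23 and 32 calls, of which 16, 20 and 29 were among the first. The filter on low levels kept 40 of the 52 genes. The GAS core was found in 10 promoters against 20 for the ISRE core.

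With the replicate number as a block, 13, 20 and 28 genes were called for the HD differences with p62, without p62 and for their mean, and 0 for the other comparisons. The numbers did not pair the mice: correlations of deviations between same-numbered mice of different groups ran from -0.337 to 0.206 (median -0.0655), and 4 of 18 exceeded 0.1, as did 10 of 36 between different numbers.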
